A study of Mus musculus with 5 samples.

Results

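The cytosolic ribosomal proteins are the proteins that, with the ribosomal RNAs, build the 60S and 40S subunits of the ribosome outside mitochondria. Their genes were taken by name, as every row of the unsmoothed expression table named Rpl or Rps with digits and an optional letter, together with Rplp0, Rplp1, Rplp2 and Rpsa. Rows named as pseudogenes, the S6 kinases and Rps19bp1 were left out. This gave 80 of the 18018 genes, 49 of the 60S and 31 of the 40S subunit. Rows of other form, such as Rps3a1 (132 UMIs in all), Gnb2l1 and Fau, are ribosomal by function but were not among the 80.

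The cells were hepatocytes of male C57BL/6J littermate mice, 8 weeks old at the start. For 12 weeks 2 of them ate regular chow (LFD) and 3 ate a high fat diet (HFD). Single cells were profiled by Drop-seq, which captures mRNA by its 3′ end in droplets and counts each captured molecule once by its unique molecular identifier (UMI). LFD mice 1 and 2 gave 132 and 84 cells with 446868 and 309050 UMIs. HFD mice 1, 2 and 3 gave 5, 208 and 25 cells with 27903, 656803 and 58470 UMIs. The labels do not say more of how the mice were kept or the cells isolated, and the replicates are single mice.

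Each ribosome carries 1 copy of nearly every ribosomal protein, with the P stalk as the best known exception, and cells make the set in balanced amounts. The mRNAs begin with a 5′ terminal oligopyrimidine tract, through which the kinase mTORC1 controls their translation, so that the amount of mRNA is only part of the control of ribosome supply. In liver, a tissue that exports plasma proteins, ribosomes occupy the rough endoplasmic reticulum of hepatocytes. Most of these genes have many processed pseudogenes, intronless copies of the mRNA scattered over the genome.

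All 17 hepatocyte markers had UMIs in every mouse, and 0 barcodes were shared between libraries. HFD mouse 1 stood apart. The median of its 5 barcodes was 6598 UMIs and 636 genes, 4 of the 5 held 3 or more UMIs of a list of another cell type, and its endothelial markers summed to 1649 CPM (UMIs scaled to 1000000 per mouse), where the other mice had 19.4 to 34.2. In that mouse 4 of the 12 endothelial markers had UMIs (Kdr 26, Egfl7 11, Cdh5 5 and Fcgr2b 4), and 8, Pecam1 and Stab2 among them, were at 0. Red cell markers summed to 502 and 291 CPM in HFD mice 1 and 3 and to 3.24 to 13.7 CPM elsewhere. The read-file name of HFD mouse 3 is built differently from the other 4. Results that moved or turned without HFD mouse 1 are therefore also given without it.

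The 80 genes together gave 12508 UMIs, 0.834% of the 1499094 UMIs of the series, with a median of 21 UMIs from 15 members per cell. Every cell had at least 1. The UMIs were spread very unevenly over the members. The 10 most abundant members held 45.0% of them and the top 20 held 69.3%, while 28 members had under 30 UMIs over all 5 mice, 18 had under 10 and 2 had 0. Since Drop-seq counts 3′ ends, UMIs were not divided by transcript length.

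The order of the members did not follow the equal proportions of the proteins in the ribosome. Rps27l, a paralog of Rps27 known as a p53-inducible gene, was the highest with 794 UMIs, while Rps27 itself had 2. Rps6, the 40S protein phosphorylated by S6 kinase, had 2 UMIs, as did Rps12 of the 40S beak. Rps14 of the 40S platform had 655 UMIs, and Rps9, which lines the mRNA entry channel, 413. Rpl4, a 60S protein that reaches into the peptide exit tunnel, had 553.

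The ends of the coding sequences of these genes are shown because reads of a 3′ method come from the transcript's end, and because they differ in how much of them occurs in other genes. Each line gives the last 100 coding bases from GENCODE vM21 (GRCm38, that is mm10), 5′ to 3′ on the gene's strand and ending with the stop codon. Capitals mark bases that lie in no 50-base window found in any other annotated gene, and lower case marks bases inside a window that another annotated gene also holds.
Rps27: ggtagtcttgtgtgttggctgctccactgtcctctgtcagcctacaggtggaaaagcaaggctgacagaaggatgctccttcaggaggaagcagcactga
Rps6: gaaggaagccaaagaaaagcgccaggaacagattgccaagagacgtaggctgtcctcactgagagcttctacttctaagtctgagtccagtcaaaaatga
Rps12: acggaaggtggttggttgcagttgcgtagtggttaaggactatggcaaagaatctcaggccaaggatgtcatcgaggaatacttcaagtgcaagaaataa
Rps27l: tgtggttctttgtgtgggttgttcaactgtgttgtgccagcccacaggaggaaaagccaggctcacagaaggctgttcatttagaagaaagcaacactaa
Rps9: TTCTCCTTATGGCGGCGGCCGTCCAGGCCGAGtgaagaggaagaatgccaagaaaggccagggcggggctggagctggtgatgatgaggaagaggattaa
Rpl4: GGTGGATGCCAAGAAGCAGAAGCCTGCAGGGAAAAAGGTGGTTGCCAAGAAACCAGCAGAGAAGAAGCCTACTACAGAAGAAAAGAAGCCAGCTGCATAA

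All 100 bases of Rps27, Rps6, Rps12 and Rps27l lay inside windows shared with other genes. In Rps9 the first 32 of these bases lay in no shared window, and in Rpl4 this held for all 100. Rps27l was the exception among the abundant members shown. Of its windows over the last 200 coding bases 66.2% were shared, against 100% for Rps27. Over the last 300 transcript bases 21.9% were shared, again against 100% for Rps27. Aligned end to end without gaps, the last 200 coding bases of Rps27 and Rps27l differed at 44 positions. Rps27 lies at chr3:90212522-90213651 on the minus strand, Rps6 at chr4:86854660-86857412 on the minus strand, Rps12 at chr10:23785183-23787275 on the minus strand and Rps27l at chr9:66946086-66949516 on the plus strand. Rps9 lies at chr7:3703993-3706897 and Rpl4 at chr9:64173375-64178666, both on the plus strand.

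Over the 80 members, copied coding ends went with low counts. For each, the share of 50-base windows of the last 200 coding bases that another annotated gene also holds was computed. For 39 members it was 100%, and their median was 18 UMIs (range 2 to 624). For 27 members it lay from 50% to under 100%, with a median of 207 UMIs (13 to 794). For 14 members it was under 50%, with a median of 382 UMIs (0 to 655). Across genes, Spearman's rho between this share and the UMI total was -0.60 (n = 80), and -0.80 without 3 tissue-specific paralogs described next. In the last 300 transcript bases, which include the 3′ UTRs that a 3′ method reads, rho was -0.25 (-0.36 without these paralogs) and 4 members were fully shared. That end was examined first, and the coding end was chosen after its value was seen. Genes share the libraries and are not independent replicates. Of 14420 genes with a matched transcript, 13.3% had any shared window and 3.25% had all windows shared.

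**Figure D1:**
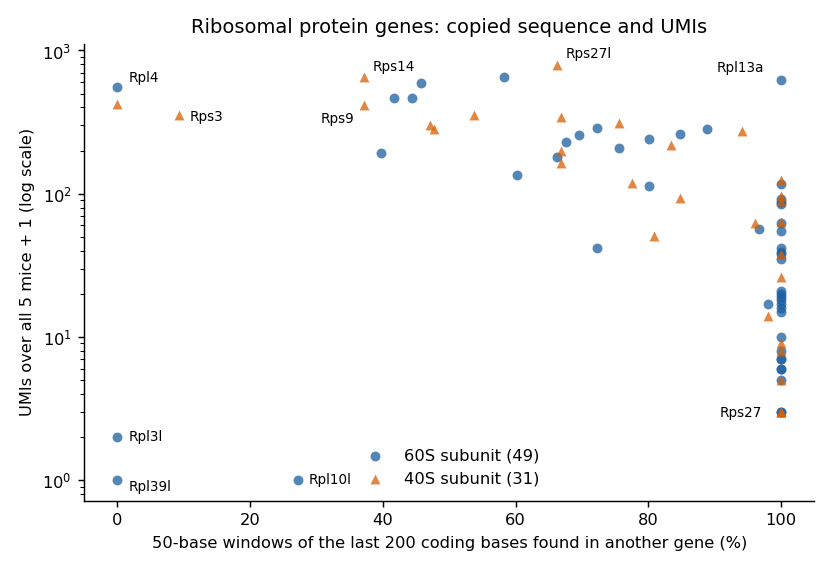
Each point is 1 of the 80 ribosomal protein genes, with the share of its 3′ coding windows found in another annotated gene (x axis, %) against its UMIs over all 5 mice plus 1 (y axis, log scale). Members at 100% reach from 2 to 624 UMIs with a median of 18, and the 3 points at the lower left are Rpl3l, Rpl10l and Rpl39l.

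The other genes that held these windows were mostly annotated pseudogenes. For Rps12 there were 22 such genes, 21 of them pseudogenes, and for Rps6 there were 11, all pseudogenes. The 3 tissue-specific paralogs were set apart here. Of the other members, the 29 of lowest count, with up to 38 UMIs each, all had at least 98% of their coding windows shared. In the last 300 transcript bases the same members ran from 0% to 100% shared. Rpl12 and Rpl28 (2 UMIs each), Rpl21 (6), Rpl5 (14), Rpl15 (19), Rpl11 (20), Rpl31 (34) and Rpl27a (37) had 0% there. Rps27 (2), Rpl10 (4), Rpl9 (5) and Rpl36a (16) had 100%, and the rest lay between. A single member of the top 20, Rpl13a, had 100% shared coding windows (624 UMIs). It is a 60S protein known to be released from the ribosome after interferon gamma. In the last 300 transcript bases Rpl13a had 0% shared windows. The 25 rows of the table named as ribosomal protein pseudogenes held 27 UMIs in all, in 9 rows. The treatment of reads that match several places was not given in the sources used here, and the part of shared sequence in the low counts was not tested. Counts of members with shared ends are uncertain in this respect, and whether a low count reflects a low mRNA level was not tested.

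Paralogs known for other tissues were at or near 0. Rpl3l, the muscle paralog of Rpl3, had 1 UMI, and Rpl10l and Rpl39l, the testis paralogs of Rpl10 and Rpl39, had 0, which allows up to 2.00 CPM over all mice. Both Rpl3l and Rpl39l had 0% shared windows, and Rpl10l had 27.2%. Their partners were not uniformly high. Rpl39, which lines the exit tunnel, had 133 UMIs, Rpl3, which lies near the peptidyl transferase centre, had 18 and Rpl10, which joins the 60S subunit late in its assembly, had 4. Rps27a, whose protein is made as a fusion with ubiquitin, had 8 UMIs, 7 of them in LFD mouse 1.

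The share of UMIs that came from the 80 genes did not separate the diets. It was 1.01% in LFD mouse 1 (95% exact binomial interval 0.981% to 1.04%) and 0.785% in LFD mouse 2 (0.754% to 0.817%). It was 1.15% in HFD mouse 1 (1.03% to 1.29%), 0.730% in HFD mouse 2 (0.710% to 0.751%) and 0.764% in HFD mouse 3 (0.695% to 0.838%). The intervals cover counting error only, and a share can fall because other transcripts rise. The HFD values lie on both sides of the LFD values, with mouse 1 of each diet the highest of its diet.

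The mean was 0.898% ± 0.159 in LFD mice (SD, n = 2) and 0.883% ± 0.235 in HFD mice (SD, n = 3). The difference of -0.015 percentage points was smaller than the pooled SD within diets of 0.213. When HFD mouse 1 was left out the HFD mean was 0.747%, and the share of both remaining HFD mice lay below that of both LFD mice. Leaving out the 39 members with fully shared ends, the shares were 0.851% and 0.678% in LFD mice 1 and 2 and 0.910%, 0.626% and 0.617% in HFD mice 1, 2 and 3. Mouse 1 of each diet was again the highest of its diet.

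In both subunits mouse 1 of each diet was the highest of its diet, and the order of the other mice differed. The 60S genes took 0.551% and 0.396% of UMIs in LFD mice 1 and 2 and 0.642%, 0.386% and 0.426% in HFD mice 1, 2 and 3. The 40S genes took 0.459% and 0.389% in the LFD mice and 0.512%, 0.345% and 0.339% in the HFD mice. HFD mouse 3 was thus above LFD mouse 2 for the 60S and below it for the 40S genes. The ratio of 60S to 40S UMIs lay between 1.02 (LFD mouse 2) and 1.26 (HFD mouse 3), with means of 1.11 ± 0.128 (SD, n = 2) in LFD and 1.21 ± 0.0787 (SD, n = 3) in HFD mice. These overlap, since HFD mouse 2, at 1.12, lay below LFD mouse 1.

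Cells of 1 mouse varied more than counting error alone gives. The SD of the share over cells was 0.276 percentage points in LFD mouse 1, 0.236 in LFD mouse 2, and 0.223 and 0.372 in HFD mice 2 and 3. The SD that binomial counting at each cell's depth would give was 0.198, 0.171, 0.185 and 0.200 in the same order. Medians over cells were 0.992%, 0.747%, 0.725% and 0.716%, and the lowest and highest single cells lay at 0.0746% and 1.57% in HFD mouse 2 and at 0.453% and 1.85% in LFD mouse 1. The share had little relation to a cell's UMI total, with Spearman's rho from -0.11 to 0.19 over the cells of each of these 4 mice. Its rho with the mitochondrial share of UMIs was -0.38 in LFD mouse 1, -0.04 in LFD mouse 2, and -0.12 and -0.40 in HFD mice 2 and 3.

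**Figure D2:**
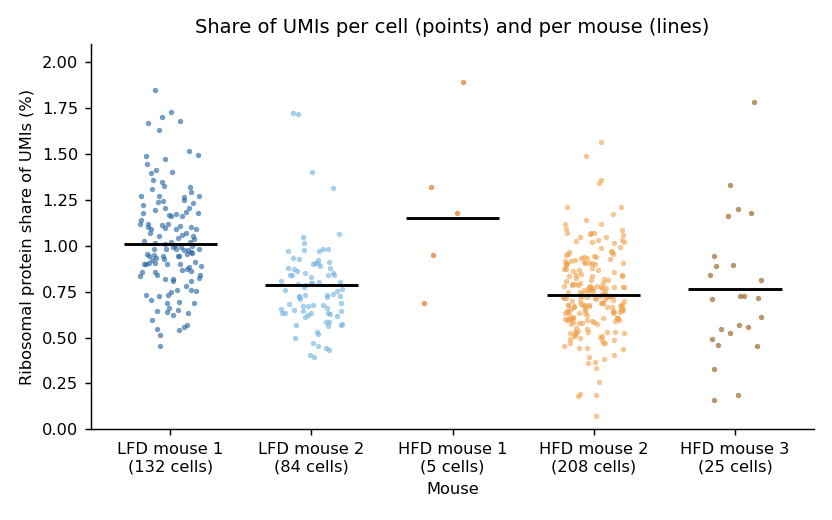
Points are cells and the y axis is the ribosomal protein share of each cell's UMIs (%), by mouse, with points spread sideways for legibility. Lines mark the share over all UMIs of a mouse, from 0.730% in HFD mouse 2 to 1.15% in HFD mouse 1.

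In HFD mouse 1 single barcodes held most UMIs of several members. The shares of its 5 barcodes ran from 0.686% to 1.89%. Rps21 had 21 UMIs there, all from 1 barcode, and Rpl34 had 23 and Rplp2 had 16, each likewise from 1 barcode. Of the 23 UMIs of Rps9, 19 came from 1 barcode, as did 16 of the 17 of Rpl30. Of the 8 members with 15 or more UMIs in this mouse, 5 had over 80% of them in a single barcode. HFD mouse 1 was the highest of the 5 mice for 18 of 51 tested members (35.3%) and the lowest for 23 (45.1%), against 24.2% and 51.9% of all tested genes.

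Diet was tested on UMIs summed per mouse with limma voom, over the 3614 genes that passed a filter on low counts. Of the 80 members 51 passed it and 29 did not, 24 of the 29 having fully shared coding ends. No member passed an adjusted p of 0.05 (0 of 51), beside 0.221% of all tested genes, and the smallest adjusted p of a member was 0.887. An unadjusted p under 0.05 was found for 1 member, Rps14, beside 5.15% of all tested genes. Log2 differences of HFD from LFD lay below 0 for 34 members and above 0 for 17, with a median of -0.20, against -0.07 over all tested genes. Above 0 lay 33.3% of the members, beside 43.9% of all tested genes. On means of the log values as deposited, limma also called 0 members, beside 0.387% of genes, with 4 members at an unadjusted p under 0.05, beside 6.36%.

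Rps14 was 553 and 557 CPM under LFD and 215, 323 and 308 CPM under HFD. All HFD mice lay below both LFD mice. The log2 difference was -0.93 (SE 0.36, limma adjusted p = 0.887).

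Among 60S proteins, Rpl14 was 168 and 149 CPM under LFD and 71.7, 73.1 and 137 CPM under HFD (-0.83, SE 0.48). Rpl35a was 266 and 168 CPM under LFD and 0, 113 and 222 CPM under HFD, so that its groups overlapped (-1.08, SE 0.65). Adjusted p values from limma were 0.989.

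The values above 0 with the smallest p were those of Rpl31, Rpl35, Rps27l, Rpl30 and Rpl26. Rps27l was 483 and 456 CPM under LFD and 788, 579 and 599 CPM under HFD, with all HFD mice above both LFD mice (0.36, SE 0.34, limma adjusted p = 0.989). Rpl31, which lies at the rim of the exit tunnel, was 13.4 and 22.7 CPM under LFD and 71.7, 25.9 and 34.2 CPM under HFD (0.93, SE 0.64, the same adjusted p), on 2, 17 and 2 UMIs. Rpl31 passed the filter on low counts only through HFD mice 1 and 3. For Rpl35, Rpl30 and Rpl26 the high value was HFD mouse 1 alone or nearly so. Rpl30 was 609 CPM there and 34.2 to 48.5 CPM in the other 4 mice, and Rpl26, also at the tunnel exit, was 681 CPM against 120 to 150 CPM. Rpl35 was 430 CPM there, 137 CPM in HFD mouse 3 and 42.1 to 53.7 CPM in the other 3. Their log2 differences of 0.92 (Rpl35), 0.51 (Rpl30) and 0.36 (Rpl26) became -0.02, -0.03 and -0.03 without HFD mouse 1, where Rpl31 was not tested.

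**Figure D3:**
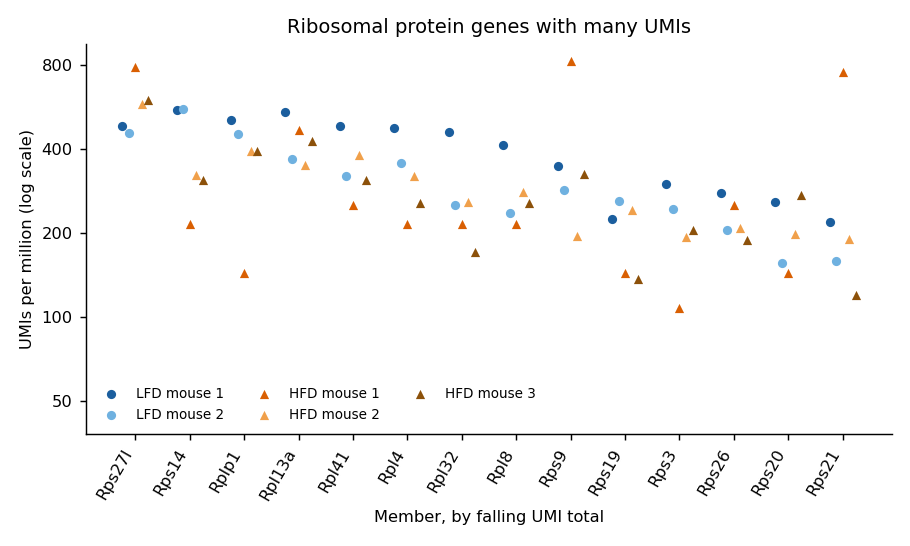
Each column is a member with many UMIs, some such members being left out, and each point a mouse (circles LFD, triangles HFD), on a log scale of CPM. Rps27l has all HFD mice above the LFD mice, Rps14 all below, and Rps9 and Rps21 a single high point at 824 and 753 CPM in HFD mouse 1.

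Without HFD mouse 1, 2 members passed the threshold, both lower in HFD mice, beside 3.35% of 3670 tested genes in either direction and 2.07% in the lower direction. They were Rps14 (log2 difference -0.80, SE 0.19, limma adjusted p = 0.0249) and Rpl14 (-1.02, SE 0.27, limma adjusted p = 0.0463). The count of 2 of 51 (3.92%) was near the background. In these 4 mice 43 of 51 members lay below 0 (84.3%), with a median of -0.34 against 0.00 over all tested genes. Above 0 lay 8 members (15.7%), beside 50.2% of all tested genes. The members' values leaned toward lower levels in both subunits, with medians of -0.34 for 28 members of the 60S and -0.38 for 23 of the 40S subunit. An unadjusted p under 0.05 was found for 11 members (21.6%), beside 18.1% of all genes.

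The groups of mice did not overlap, with HFD lower, for 12 of 51 members in 5 mice (23.5%), beside 14.3% of all tested genes, and with HFD higher for 2 members (3.92%), beside 8.88%. In the 4 other mice these were 16 members lower (31.4%), beside 20.2%, and 3 higher (5.88%), beside 20.6%. The higher ones were Rps27l in both cases, with Rpl31 in 5 mice and Rpl27a and Rpl37 in 4. Rpl31 and Rpl27a passed the filter on low counts only through HFD mice, the group where they were high. Their place among the higher members is therefore no separate result.

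LFD mouse 1 was above LFD mouse 2 for 41 of the 51 members (80.4%), beside 48.7% of all tested genes, and the highest of the 4 mice other than HFD mouse 1 for 31 (60.8%), beside 19.4%. With LFD mouse 1 left out as well as HFD mouse 1, 30 of the 43 members still tested lay below 0, with a median of -0.21, where the 4 mice gave -0.32 for the same 43. With LFD mouse 2 and HFD mouse 1 left out, 43 of the 51 members lay below 0, with a median of -0.60. In fits that kept HFD mouse 1, the median was 0.07 over 39 members without LFD mouse 1 and -0.38 over 46 without LFD mouse 2. Over all tested genes the medians of these fits, in the order given, were -0.02, -0.01, -0.03 and -0.07. With 1 LFD mouse left, that mouse is assumed to vary like the HFD mice.

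**Figure D4:**
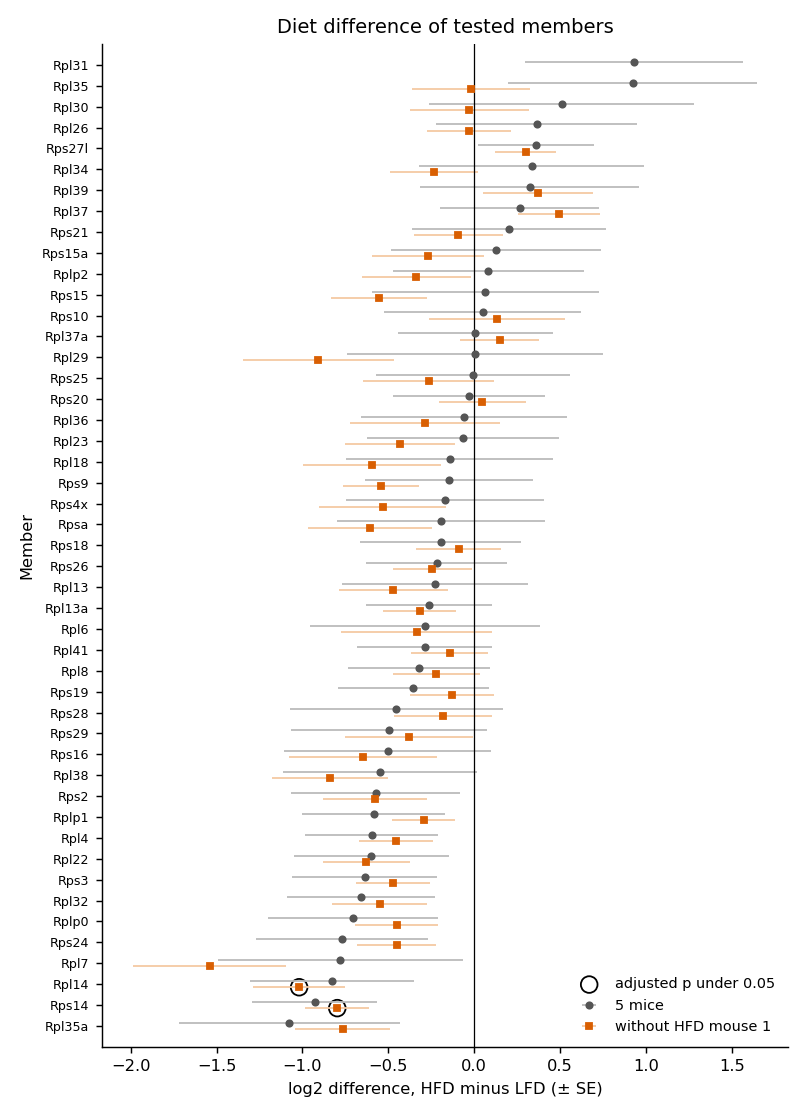
Log2 differences of HFD from LFD mice (x axis, ± SE) for most of the 51 members tested in 5 mice (grey circles) and for the same members without HFD mouse 1 (orange squares), ordered by the former. Rings mark Rps14 and Rpl14, the members past an adjusted p of 0.05 without HFD mouse 1, and most orange points lie left of 0.

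The remaining members named by abundance or role had log2 differences of under 2 SE in 5 mice. The P stalk, formed by Rplp0 with pairs of Rplp1 and Rplp2, recruits the translation factors to the ribosome. Rplp1 was 506 and 453 CPM under LFD and 143, 393 and 393 CPM under HFD (-0.58, SE 0.42). Rplp0 was 204 and 165 CPM under LFD and 35.8, 134 and 137 CPM under HFD (-0.71, SE 0.50), on 1 UMI in HFD mouse 1. Both had all HFD mice below the LFD mice, and without HFD mouse 1 they were at -0.30 (SE 0.19) and -0.45 (SE 0.24). Rplp2 was 280 and 123 CPM under LFD and 573, 140 and 222 CPM under HFD (0.08, SE 0.56), and its sign turned without HFD mouse 1 (-0.34, SE 0.32).

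Rpl4 was 477 and 356 CPM under LFD and 215, 318 and 257 CPM under HFD, without overlap (-0.60, SE 0.39). Rpl13a was 544 and 369 CPM under LFD and 466, 349 and 428 CPM under HFD (-0.26, SE 0.37), and Rpl41, which encodes an exceptionally short peptide, 483 and 320 CPM under LFD and 251, 381 and 308 CPM under HFD (-0.29, SE 0.40). The groups overlapped for both. Rps9 was 347 and 285 CPM under LFD and 824, 195 and 325 CPM under HFD (-0.15, SE 0.49), and Rps21 was 219 and 159 CPM under LFD and 753, 190 and 120 CPM under HFD (0.20, SE 0.57). Without HFD mouse 1 Rps9 was at -0.54 (SE 0.22, limma adjusted p = 0.205), Rps21 turned to -0.09 (SE 0.26) and Rpl41 was at -0.14 (SE 0.23). Rpsa, also known as the laminin receptor, and the X-linked Rps4x lay at 30.5 to 143 CPM and 30.5 to 68.4 CPM, with log2 differences of -0.19 (SE 0.61) and -0.17 (SE 0.57), and of -0.61 (SE 0.36) and -0.53 (SE 0.37) without HFD mouse 1. Among the 15 members with 300 or more UMIs, the highest of the 4 mice other than HFD mouse 1 was 1.29 (Rplp1) to 2.68 (Rpl32) times the lowest.

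In the table smoothed over similar cells, limma called 45 of the 51 members, 42 lower and 3 higher in HFD mice, beside 70.7% of all tested genes (53.3% lower and 17.4% higher). The median of the members there was -0.02 on the log2 scale. Smoothed values pool similar cells and are not separate measurements of each cell, so this count is given for comparison only.

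The lobule axis runs from the portal vein to the central vein, and hepatocytes differ in metabolism along it. Within each mouse, cells were ordered by a score of 19 pericentral and 18 periportal genes, of which none is ribosomal, and divided at the median into 2 sides. The ribosomal protein share was higher in the pericentral side in 5 of 5 mice. In LFD mouse 1 it was 0.906% in the periportal and 1.16% in the pericentral side, and in LFD mouse 2 0.703% and 0.883%. In HFD mouse 2 it was 0.682% and 0.770%, in HFD mouse 3 0.669% and 0.848%, and in HFD mouse 1, with 2 and 3 barcodes, 0.843% and 1.36%.

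The exact binomial intervals of the sides overlapped in HFD mouse 3 (0.575% to 0.773% and 0.749% to 0.956%) and in no other mouse. The mean difference was 0.243 percentage points ± 0.163 (SD, n = 5), and 0.175 without HFD mouse 1. It was 0.216 over LFD mice and 0.260 over HFD mice, and 0.134 over HFD mice 2 and 3, so that the order of the diets turned without HFD mouse 1. Over single cells, Spearman's rho of the share with the axis score was 0.52 in LFD mouse 1 (132 cells), 0.35 in LFD mouse 2 (84 cells), 0.21 in HFD mouse 2 (208 cells) and 0.23 in HFD mouse 3 (25 cells).

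By tertiles, the share rose from the periportal through the middle to the pericentral tertile in 3 of 5 mice. In LFD mouse 1 the tertiles were 0.881%, 1.02% and 1.22%, in LFD mouse 2 0.690%, 0.744% and 0.983%, and in HFD mouse 3 0.626%, 0.730% and 0.955%. HFD mouse 2 had 0.694% and 0.688% in the first 2 tertiles and 0.792% in the pericentral one. HFD mouse 1 had 1, 3 and 1 barcodes in the tertiles. Both subunits were higher in the pericentral side of each mouse. In LFD mouse 1 the 60S genes went from 0.484% to 0.646% and the 40S genes from 0.422% to 0.512%, and in HFD mouse 2 from 0.349% to 0.416% and from 0.333% to 0.354%.

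**Figure D5:**
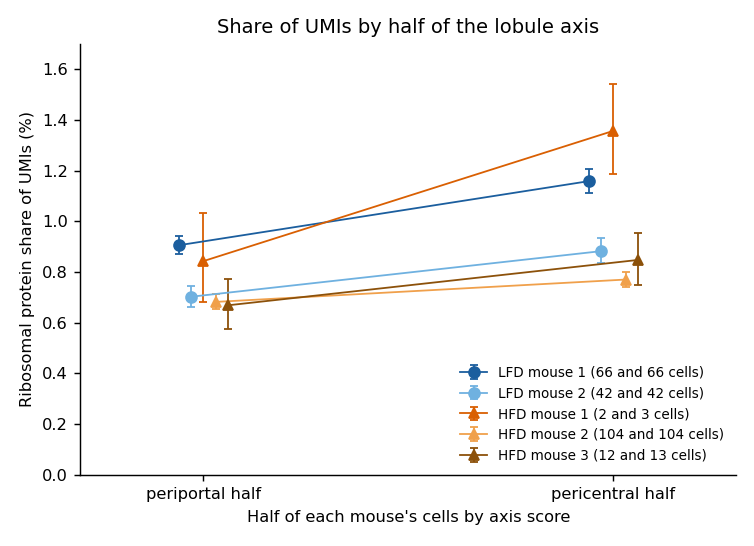
The y axis is the ribosomal protein share of UMIs (%) in the periportal and the pericentral side of each mouse's cells, with exact 95% binomial intervals (counting error only). All 5 lines rise to the right, by 0.0883 percentage points in HFD mouse 2 and by 0.514 in HFD mouse 1.

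Other measures also differed between the sides. The median UMI count per cell was 3273 in the periportal and 2203 in the pericentral side of LFD mouse 1, 3242 and 2756 in LFD mouse 2, and 2058 and 2220 in HFD mouse 2. With every cell thinned to 1728 UMIs, which left 341 of 454 cells, the pericentral side remained higher in 5 of 5 mice, by 0.222 and 0.0860 percentage points in LFD mice 1 and 2 and by 0.357, 0.0933 and 0.364 in HFD mice 1, 2 and 3. Major urinary protein transcripts were 6.41% of periportal and 5.32% of pericentral UMIs in LFD mouse 1, 7.72% and 5.87% in LFD mouse 2, and 8.98% and 5.27% in HFD mouse 2. They were 2.36% and 2.30% in HFD mouse 3 and, the other way round, 1.20% and 1.59% in HFD mouse 1. Their part in the result was not tested.

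Single members were tested along the axis in sums per mouse and side, with mouse as a block, over 2599 genes. Of 45 members tested 0 passed, beside 0.693% of all tested genes, and 3 had an unadjusted p under 0.05, beside 8.93%. Log2 differences of the pericentral from the periportal side were above 0 for 28 members (62.2%), beside 47.6% of all tested genes. The median was 0.21 against -0.02 over all tested genes. The pericentral side was higher in every mouse for 5 members (11.1%), beside 4.96% of all genes, among them Rplp2, Rps21 and Rps27l. In the 4 mice other than HFD mouse 1 it was higher throughout for 14 members (31.1%), beside 14.4%. The periportal side was higher in every mouse for 0, beside 4.54%. For Rps27l the log2 difference was 0.39 (SE 0.36) in 5 mice and 0.03 (SE 0.15) without HFD mouse 1. For Rplp2 it was 0.43 (SE 0.46) and 0.05 (SE 0.20).

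Rps21 had the smallest p. In the periportal and pericentral sides it was 168 and 292 CPM in LFD mouse 1, 102 and 225 CPM in LFD mouse 2, and in HFD mice 1, 2 and 3 it was 0 and 1245, 144 and 229, and 73.5 and 160 CPM. It was higher in the pericentral side of every mouse, with a log2 difference of 1.13 (SE 0.45, limma adjusted p = 0.457). Without HFD mouse 1, whose 21 UMIs came from 1 barcode, it was 0.72 with a limma adjusted p of 0.0194, the only member past the threshold of 43 tested (2.33%), beside 6.78% of 2612 genes.

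Rpl26 was 126 and 184 CPM, 71.9 and 211 CPM, and 107 and 174 CPM on the sides of LFD mouse 1, LFD mouse 2 and HFD mouse 2, but 147 and 96.0 CPM in HFD mouse 3 (1.00, SE 0.42). It was 0.65 when HFD mouse 1 was left out (SE 0.23, limma adjusted p = 0.0884). Rpl35a was higher pericentrally in 4 mice and had 0 UMIs in HFD mouse 1 (0.49, SE 0.27). The limma adjusted p was 0.487 for Rpl26 and 0.676 for Rpl35a.

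The values below 0 with the smallest p were mixed over mice. Rpl36 had a log2 difference of -0.60 (SE 0.43), Rps25, which viral internal ribosome entry sites need, of -0.35 (SE 0.45), Rps4x of -0.30 (SE 0.39), and Rps3, a 40S protein at the mRNA entry that also acts in DNA repair, of -0.23 (SE 0.27). Rps3 was higher in the pericentral side of LFD mouse 1 (294 and 308 CPM) and lower in that of HFD mouse 2 (234 and 160 CPM). The limma adjusted p was 0.766 for Rpl36 and 0.883 to 0.905 for the other 3. Rps4x passed the filter, here 65.8 CPM, only through the periportal sums of HFD mice 1 and 3 (90.7 and 73.5 CPM). That is the side where it was high, so its place here is no separate result. Rpl36 passed it only with HFD mouse 1, at 90.7 CPM periportally on 1 UMI, and was not tested without that mouse. Without it Rps25 was at -0.19, Rps4x at -0.32 and Rps3 at -0.34.

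Without HFD mouse 1, 11 of 43 members had an unadjusted p under 0.05 (25.6%), beside 17.5% of all tested genes, and the median was 0.14 against 0.00. The stalk proteins differed in value, with Rplp1 at 0.46 (SE 0.17), Rplp2 at 0.05 (SE 0.20) and Rplp0 at -0.07 (SE 0.21). A difference of the axis between diets passed for 0 of 45 members with limma, beside 0% of 2599 genes. At an unadjusted p under 0.05 it was found for 0 members, beside 1.46% of genes.

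Other genes of ribosome supply were described by lists drawn from general knowledge. Of 4 tested further proteins of the cytosolic ribosome or their carriers, 1 lay above 0 for diet and 3 below, with a median of -0.16, and 0 passed. The median was -0.45 without HFD mouse 1, with 4 of 5 below 0. Gnb2l1, which encodes the 40S scaffold RACK1, was 246 and 214 CPM under LFD and 179, 167 and 171 CPM under HFD (-0.44, SE 0.41). Fau, which encodes a ubiquitin-like protein fused to the 40S protein S30, was 22.8 to 35.8 CPM (-0.19, SE 0.57), and Rpl36al, a paralog of Rpl36a, 103 to 204 CPM (-0.12, SE 0.47). Fau was at -0.48 and Rpl36al at 0.02 without HFD mouse 1. Rpl36a had 16 UMIs against 274 for Rpl36al.

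Among 20 tested translation factors whose mRNAs carry or are thought to carry the same 5′ tract, 7 lay above 0 and 13 below, with a median of -0.10, and 0 passed. Their median was -0.12 with HFD mouse 1 left out, with 11 of 19 below 0. Eef1g, a subunit of elongation factor 1, was 31.3 and 42.1 CPM under LFD and 108, 74.6 and 68.4 CPM under HFD (1.08, SE 0.52). All HFD mice were above the LFD mice. Eef1d, another subunit, was 137 and 110 CPM under LFD and 0, 67.0 and 68.4 CPM under HFD (-1.21, SE 0.59). Eef2, the translocation factor, was 396 and 369 CPM under LFD and 215, 268 and 274 CPM under HFD (-0.59, SE 0.37). Without HFD mouse 1 Eef1g was at 1.05, Eef1d at -0.86 and Eef2 at -0.51.

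Of 12 tested genes of ribosome biogenesis 3 lay above 0 and 9 below, with a median of -0.35, and 0 passed. Ubtf, a factor of RNA polymerase I, was 11.2 and 25.9 CPM under LFD and 287, 27.4 and 51.3 CPM under HFD. It passed the filter on low counts only through HFD mice. Its log2 difference was 1.42 (SE 0.77), with 8 UMIs in HFD mouse 1, and 0.89 without that mouse. Sbds, which frees the 60S subunit for joining, had one of -0.74 (SE 0.52), and Dkc1, the pseudouridine synthase, one of 0.66 (SE 0.55). Without HFD mouse 1 Sbds was at -0.55 and Dkc1 at 0.84. The list's median was 0.04 when HFD mouse 1 was left out, with 7 of 13 above 0.

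Of 6 tested genes of the mTORC1 and oligopyrimidine control pathway 3 lay on each side of 0 and 0 passed. The median of 0.03 became -0.05 without HFD mouse 1, with 4 of 7 below 0. Eif4ebp1, the translation repressor 4E-BP1, had a log2 difference of -0.48 (SE 0.63), Rps6kb1, the kinase of Rps6, of -0.42 (SE 0.57) and Rheb, the activator of mTORC1, of 0.16 (SE 0.61). Without HFD mouse 1 Eif4ebp1 was at -0.22, Rps6kb1 at -0.86 and Rheb at 0.55. Of 7 genes of ribosomal stress 0 had enough UMIs to be tested. Of 62 tested mitochondrial ribosomal protein genes, which serve a separate ribosome, 19 lay above 0 and 43 below, with a median of -0.24, and 0 passed. Mrps15 had -1.37 (SE 0.62), Mrpl1 1.19 (SE 0.63) and Mrpl55 -1.04 (SE 0.59). In HFD mouse 1 Mrps15 and Mrpl55 had 0 UMIs and Mrpl1 was at 502 CPM. Without that mouse they were at -0.80 (Mrps15), 0.71 (Mrpl1) and -0.59 (Mrpl55). With HFD mouse 1 left out the mitochondrial list's median was -0.04 with 34 of 64 below 0.

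In summed UMIs the mitochondrial ribosomal list took 0.555% and 0.546% in LFD mice 1 and 2 and 0.337%, 0.522% and 0.568% in HFD mice 1, 2 and 3. HFD mouse 1 was the lowest in that list and the highest in the cytosolic one. Along the axis the 48 tested mitochondrial members lay 23 above and 25 below 0, with a median of -0.05, and 0 passed. All 3 tested further proteins of the cytosolic ribosome lay above 0 (median 0.21), as did 10 of 16 translation factors (0.09), 5 of 10 biogenesis genes (0.05) and 1 of 3 genes of the mTORC1 pathway (-0.31), and 0 of these passed.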

How the data were processed

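Drop-seq libraries of hepatocytes from 2 LFD and 3 HFD mice were sequenced by Illumina chemistry per the labels, and cells were given to mice by column name. The aligner was STAR 2.6.0a and the build mm10, per the submitters' processing notes. Treatment of multi-mapping reads, cell filters and doublets was not given in the sources used here. For 454 cells and 18018 genes the authors deposited values found to be the natural log of 1 plus UMIs per 10000. Back-transformed, 100% of values were whole UMIs within 0.001. A second deposited table, named for MAGIC, holds smoothed natural log values and served only for comparison.

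UMIs were summed per mouse, or per mouse and side of the axis score, and went into limma voom (version 3.58.1 under R 4.3.3) with trimmed-mean factors computed here. The filter asked for 32.4 CPM (diet), which is 10 UMIs in the median library, in at least 2 libraries and 15 UMIs in all. P-values were Benjamini-Hochberg adjusted over all genes tested, with 0.05 as threshold. CPM are UMIs scaled to 1000000 per mouse. In simulated data at these depths, true log2 changes of 1 were called for 61% of genes for diet and 82% along the axis, changes of 3 for 100%, and unchanged genes for 0.302% and 0.244%. Changes were planted only in genes with 300 or more UMIs, a count that 15 members reached. The spread between mice was set in advance and not taken from these mice. These rates therefore do not give the power for a typical member. A count of 0 allows 3 counts, from 4.57 CPM in HFD mouse 2 to 108 CPM in HFD mouse 1. Intervals are exact 95% binomial (SciPy 1.17.1). No doublet caller was run.

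Shared windows were sought in all GENCODE vM21 transcripts read in the sense direction, pseudogenes and overlapping genes included, from each gene's principal transcript. The members, lists and tests were chosen with earlier results of these data known. Members named are the 8 of highest mean CPM, 5 (diet) and 4 (axis) of smallest p in each direction, all past the threshold, and those set by role, with 3 genes per list. Rps12, Rpl37, Rpl27a, Rpl32, Rpl34 and the sequences shown were picked after values were seen. So were Rpl5, Rpl9, Rpl11, Rpl12, Rpl15, Rpl21, Rpl28 and Rpl36a, named for their counts and shared windows. Some members are not reported here by name but are in the counts. Alternatives left out each mouse and varied filter, scaling, cells, depth and denominator.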

Additional observations from a re-analysis of the deposited data

How the results depend on the processing

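The count of members past the threshold for diet was 0 with total UMIs only, a minimum of 50 UMIs, no filter, mean log values, when the 5% deepest cells or the cells with 3 or more marker UMIs were left out. It was 45 in the smoothed table, and 0 to 2 when each mouse was left out in turn, the 2 being without HFD mouse 1. It was 0 with HFD mouse 1 and either LFD mouse left out, fits added after the data were seen. Along the axis it was 0 with total UMIs only, a minimum of 50, no filter, outer tertiles or thinned cells, and 0 to 1 with each mouse left out, the 1 being without HFD mouse 1. For the diet by axis difference it was 0 with each mouse left out, the only alternatives run. The cause of these changes was not tested. Leaving out the cells with 3 or more marker UMIs removed 4 of the 5 barcodes of HFD mouse 1.

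The difference in share by diet lay between -0.151 and 0.0976 percentage points with each mouse left out, so its sign is not settled. Every alternative moved it by less than the pooled SD of 0.213 over 5 mice. Without HFD mouse 1 the difference of -0.151 was larger in size than the pooled SD of 0.114, but smaller than the LFD SD of 0.159. These SDs are spreads of single mice and not errors of the difference. The share along the axis was higher pericentrally in every mouse under outer tertiles, thinning and a denominator without score genes. Under outer tertiles HFD mouse 1 had 1 barcode on each side. Means were 0.175 to 0.282 when each mouse was left out.

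Replicate numbers 1 and 2 are shared by the diets. The correlation of deviations from the diet means was 0.03 for the mice numbered 1 and 0.07 for those numbered 2, and with 2 pairs the numbers were not taken to pair the mice. With the replicate number as a block 0 members and 25 genes in all passed, against 0 and 8 without it.

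Of 432 recalculated values of named members 48 changed sign. Of these, 3 were past the threshold, all in the smoothed table: Rpl26 at -0.0243, Rplp2 at -0.0319 and Rps21 at -0.0245. The rank correlation of shared windows with UMIs was -0.25 in the last 300 transcript bases, and -0.58 with windows of 30 and of 75 bases in the coding end. The member of lowest count tested had 34 UMIs for diet and 54 along the axis, and members not tested for diet had up to 37.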
